A study of Homo sapiens with 2 samples.

Results

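The genes described here are those of interferon ligands and of the receptor chains that interferons bind, measured in RWPE-1, a line of noncancerous epithelial cells from human prostate. They were chosen by function, with earlier results of these arrays known, and comprise 4 ligands (IFNB1, IFNL1, IFNE and IFNK) and 6 receptor chains (IFNAR1, IFNAR2, IFNLR1, IL10RB, IFNGR1 and IFNGR2), together 10 of the 19735 genes that the array names through a RefSeq accession. Every non-control probe whose accession belongs to one of them was taken, which gave 14 probes, with IFNL1 and IFNLR1 listed in older designs as IL29 and IL28RA. The cells carried 30 nM of either pre-miR-424, a precursor molecule through which cells receive the microRNA miR-424, or a negative control (Negative control #1), and grew in serum-free keratinocyte medium. The time between transfection and RNA extraction is not given in the sources used here. RNA of both conditions was hybridised together on each of 2 Agilent two-colour arrays. With normal labelling the pre-miR-424 RNA carried Cy5 and the control RNA Cy3, and on the dye swap the dyes were exchanged. The arrays lie on 1 slide and count as 1 replicate of the comparison, so no p-value was computed, and the SD given with a mean is the spread between the arrays, which covers labelling and hybridisation only. All ratios are log2 of pre-miR-424 over control. As an mRNA array does not measure a mature microRNA, its delivery could not be checked here.

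Interferons are secreted proteins by which a cell that senses foreign nucleic acid alerts itself and its neighbours. Type I interferons, among them IFNB1, IFNE and IFNK, bind the IFNAR1 and IFNAR2 pair. Type III interferons such as IFNL1 act mainly on epithelia through IFNLR1 with IL10RB, a chain also used by the receptors of IL-10 and IL-22. Both receptors activate JAK1 and TYK2, and a complex that holds STAT2 and IRF9 then induces the interferon-stimulated genes. The type II interferon, IFNG, comes from lymphocytes and acts through IFNGR1 and IFNGR2. IFNB1 and IFNL1 are the ligands that epithelial cells induce on sensing nucleic acid, IFNK is known from keratinocytes, and IFNE is produced constitutively in reproductive tract epithelium.

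The microRNA that was delivered is shown first because its seed, bases 2 to 8 in capitals, defines its family. In the RefSeq table (GRCh38.p14) 7 human mature microRNAs share the seed AGCAGCA, of which 3 are printed 5′ to 3′:
hsa-miR-424-5p: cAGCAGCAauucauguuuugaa
hsa-miR-16-5p: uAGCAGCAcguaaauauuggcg
hsa-miR-497-5p: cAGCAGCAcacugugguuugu
Outside the seed the printed sequences differ. Target sites in the ligand and receptor transcripts were not searched for, since no transcript sequence was used here.

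The promoters of the ligands that are induced by nucleic acid sensing, and of the receptor chain that was lower on both arrays, are printed because they differ in the sites they hold for factors of the interferon pathway. RefSeq promoter windows were matched for 9 of the 10 genes, all but IFNAR2. Each line holds the 250 bases before the transcription start on the gene's own strand (GRCh38.p14), with matches to 4 motifs in capitals. These are GAAANNGAA, from the element bound by the complex with STAT2 and IRF9, AANNGAAA, bound by interferon regulatory factors and sharing its first 7 letters with the former, GGAAATTCC, an NF-kB site, and TTCNNNGAA, bound by STAT dimers, all searched on both strands.
IFNB1 promoter (chr9:21077943-21078192, minus strand): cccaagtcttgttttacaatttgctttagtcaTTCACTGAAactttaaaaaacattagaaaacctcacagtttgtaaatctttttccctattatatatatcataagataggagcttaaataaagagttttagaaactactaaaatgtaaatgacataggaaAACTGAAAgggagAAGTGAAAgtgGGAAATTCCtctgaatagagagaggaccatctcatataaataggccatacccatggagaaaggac
IFNL1 promoter (chr19:39296157-39296406, plus strand): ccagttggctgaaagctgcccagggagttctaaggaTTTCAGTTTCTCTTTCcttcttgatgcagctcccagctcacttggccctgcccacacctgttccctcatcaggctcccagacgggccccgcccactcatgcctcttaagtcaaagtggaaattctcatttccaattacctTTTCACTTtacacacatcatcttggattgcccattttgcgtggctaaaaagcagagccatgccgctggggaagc
IFNLR1 promoter (chr1:24187290-24187539, minus strand): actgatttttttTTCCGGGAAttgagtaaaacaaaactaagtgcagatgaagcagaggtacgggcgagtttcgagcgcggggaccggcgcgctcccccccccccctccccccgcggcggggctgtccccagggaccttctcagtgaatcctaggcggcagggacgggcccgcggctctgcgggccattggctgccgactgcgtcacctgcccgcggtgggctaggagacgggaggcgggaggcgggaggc
In the IFNB1 window AANNGAAA starts 89 and 76 bases upstream, followed by GGAAATTCC at 65, and TTCNNNGAA lies at 218. The IFNL1 window holds GAAANNGAA at 213 and 207, where the matches overlap, and AANNGAAA at 214, 208 and 74. The only match before IFNLR1 was TTCNNNGAA at 238, and before IFNK, not printed, AANNGAAA ended at 100 and TTCNNNGAA at 184. In the windows of IFNE, IL10RB, IFNAR1, IFNGR1 and IFNGR2 none of these letters were found. Of all 35116 promoter windows, 6.88% held GAAANNGAA, 20.3% AANNGAAA, 0.413% GGAAATTCC and 6.57% TTCNNNGAA.

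Of the ligands, 3 of 4 carried the scanner software's mark for a signal well above background in all 4 channels, at most of the spots of their probe. These were IFNL1, IFNE and IFNK. All 6 receptor chains met the same rule, which 71.2% of all named genes met through at least 1 probe and 61.3% of all probes met. Signals below are median spot signals before normalization, in arbitrary intensity units, and Cy3 and Cy5 values are not on one scale. Background measured in the same way came from 308 negative-control spots, whose medians were 49 in Cy3 on both arrays and 77 and 75 in Cy5 with normal labelling and on the swap.

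IFNB1, the ligand through which most cells start a type I response, lay near the floor. Its probe (NM_002176) read 155 in pre-miR-424 RNA and 88 in control RNA with normal labelling, over local backgrounds of 75.5 and 32. On the swap it read 89.3 in pre-miR-424 RNA and 129 in control RNA, over 29.5 and 71.5. Pre-miR-424 RNA was thus well above background on both arrays, at 2 of 2 spots each. Control RNA was so at 2 of 2 spots with normal labelling and at 1 of 2 on the swap, so IFNB1 was not counted among the measured genes. In each channel 3 or 4 of the 308 negative-control spots were as bright or brighter. Under a weaker mark, a signal positive and significant against the background, IFNB1 passed in all 4 channels.

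IFNL1, a type III ligand (NM_172140), read 211 in pre-miR-424 RNA and 123 in control RNA with normal labelling, and 122 and 215 on the swap. At most 2 negative-control spots reached it in any channel. IFNE (NM_176891), with 1 spot per array, read 355 and 266 with normal labelling and 226 and 430 on the swap, above every negative-control spot. IFNK (NM_020124), also with 1 spot, read 243 and 146, then 164 and 204. Before normalization and within each dye, IFNE was thus brighter in control RNA, IFNK brighter in pre-miR-424 RNA, and IFNL1 near level. Within a dye the comparison runs between the arrays, so it does not show the condition alone. The median of all non-control spots was also brighter in control RNA, at 189 against 165 in Cy3 and 314 against 290 in Cy5. The plot of ligand signals sets the ligands beside the control spots.

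**Figure D1:**
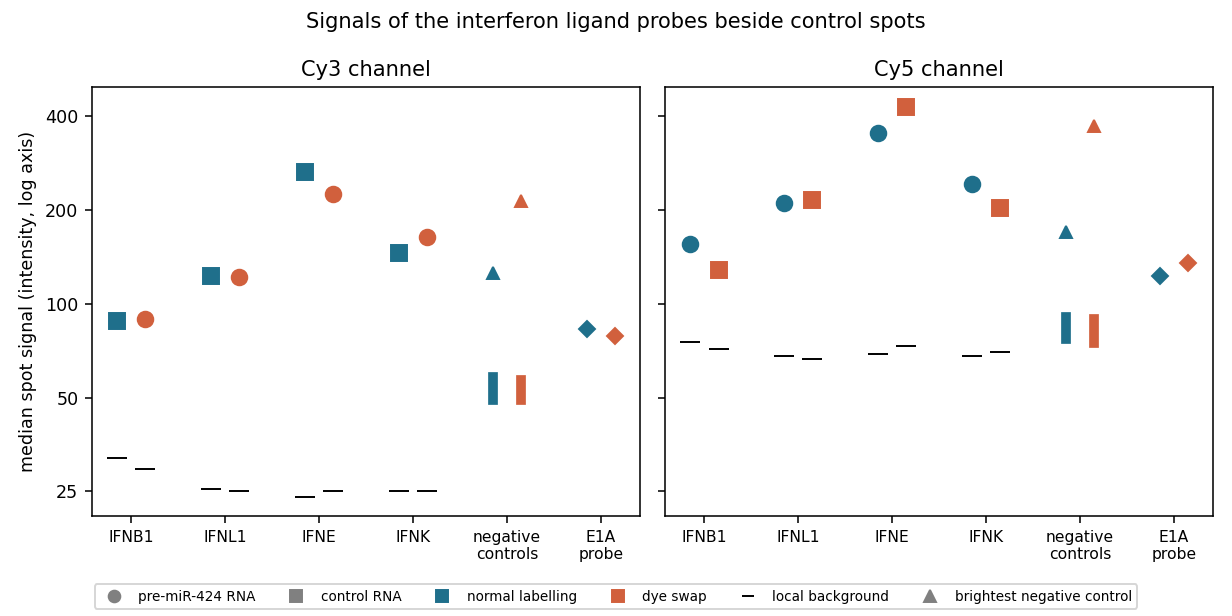
Median spot signal (log axis, arbitrary units) of the 4 ligand probes in Cy3 (left) and Cy5 (right), with circles for pre-miR-424 RNA, squares for control RNA, dashes for local background, bars from the median to the 95th percentile of 308 negative-control spots, triangles for the brightest of them and diamonds for the median of 35 spots of an E1A control probe. IFNB1, at 88 to 155, lies above the bars and below the triangles.

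No ligand passed a 2-fold difference on both arrays. IFNB1 had log2 ratios of 0.17 with normal labelling and 0.27 on the swap, a mean of 0.22 (SD 0.069, n = 2 technical arrays) or 1.17-fold. Its single spots read 0.17 and 0.17, then 0.11 and 0.44, all above 0. The size of this value depended on the treatment of background, at 0.33 with a normexp offset of 16 and 0.67 in the scanner software's own ratio. IFNL1 was at 0.12 and 0.08, mean 0.10 (SD 0.029), and in the scanner software's ratio at 0.20. On the swap its single spots read 0.16 and −0.00042, so that value rests on 1 spot. IFNK had a mean of 0.35 (SD 0.36), which came from 0.60 on the swap against 0.09 with normal labelling. In the scanner software's ratio it was at 1.11 on the swap and 0.05 with normal labelling, with a mean of 0.58, below that of IFNB1. IFNE was at −0.20 and 0.03, mean −0.08 (SD 0.17), with no common direction. As a yardstick for a mean served the SD of the halved difference between the arrays, over measured probes of like brightness (of 4 equal classes). It was 0.13 in the dimmest class. With signs turned on the swap, this difference holds the dye effect of each probe. That effect cancels in the mean, so the yardstick is not the error of the mean. IFNB1 and IFNK stood 1.78 and 2.76 times this yardstick from 0, and IFNL1 0.817 times. These multiples are not test statistics. IFNK, with 1 spot per array, had an SD between the arrays of 0.36, against 0.18 over its class. IFNB1 was not among the measured probes that gave the yardstick. In bulk RNA a change in the share of cells that express a gene and a change in RNA per cell cannot be told apart.

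By their brightest probes the type I receptor chains were slightly higher on both arrays after loess. IFNAR1 and IFNAR2 then stood 1.48 and 0.976 times the yardstick of their brightness class from 0. IFNAR1 (NM_000629), the chain that binds TYK2, read 1244 in pre-miR-424 RNA and 805 in control RNA with normal labelling, and 882 and 1279 on the swap. Its log2 ratios were 0.04 and 0.42, mean 0.23 (SD 0.27), so that the value rests on the swap. IFNAR2, the chain with the higher affinity for the ligand, has 3 probes. The brightest (NM_000874) read 2057 and 1252 with normal labelling and 1127 and 1935 on the swap, with log2 ratios of 0.13 and 0.17, mean 0.15 (SD 0.030). A second probe of this accession was at 0.08 and 0.12, mean 0.10. Its single spots on the swap read 0.29 and −0.04, with opposite signs. The probe of NM_207585, another transcript variant, was at −0.11 and 0.16, mean 0.03 (SD 0.18), and did not keep a direction. Centred on the median without loess, IFNAR2 was at 0.26 and −0.07.

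IFNLR1, the chain specific to type III interferons, was after loess the only member lower on both arrays. Its brightest probe (NM_170743) read 957 in pre-miR-424 RNA and 731 in control RNA with normal labelling, and 560 and 1287 on the swap. The log2 ratios were −0.20 and −0.24, mean −0.22 (SD 0.029), or 1.16-fold lower. The probe of NM_173065, a dimmer one, had −0.32 and −0.13, mean −0.22 (SD 0.14). The remaining probe, not well above background at most spots in any of the 4 channels, had −0.08 and −0.10. Averaged over their spots, all 3 probes, from 5 spots per array, were thus lower on both arrays, by less than 2-fold. The single spots of the dim probe read −0.29 and 0.08 on the swap, with opposite signs. The brightest probe stood 1.40 times the yardstick of its brightness class from 0. IL10RB (NM_000628), the other chain of this receptor, read 3266 and 2094, then 1986 and 3816, and had ratios of 0.04 and 0.04 (SD 0.0054). Its single spots differed in sign on each array, at 0.10 and −0.01, then 0.11 and −0.04.

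The type II receptor chains were bright and nearly level between the conditions. IFNGR1 (NM_000416), the ligand-binding chain, read 15499 in pre-miR-424 RNA and 10154 in control RNA with normal labelling, and 8900 and 17399 on the swap. Its ratios were −0.10 and 0.11, mean 0.0028 (SD 0.15). IFNGR2 (NM_005534), which signals through JAK2, read 9219 and 6000, then 5072 and 9872, with ratios of −0.03 and 0.06, mean 0.02 (SD 0.070). For both, the sign followed the dye and not the condition. No spot of any member was saturated or marked as an outlier.

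**Figure D2:**
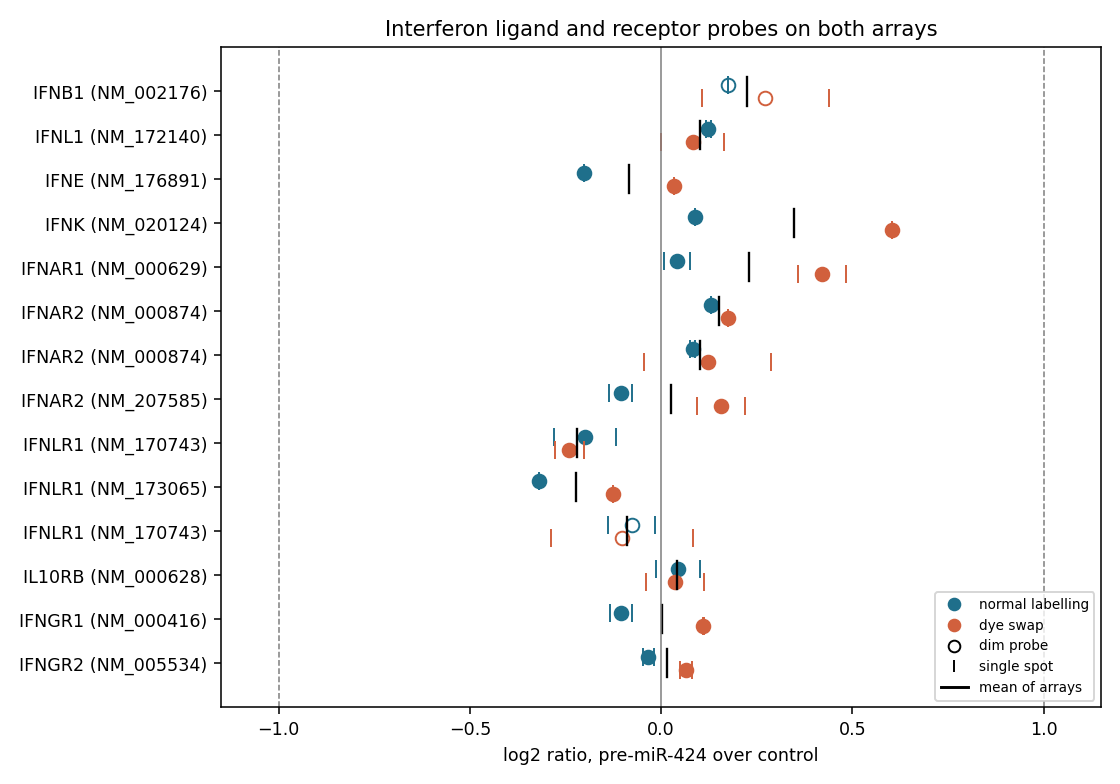
Log2 ratio of pre-miR-424 over control on the array with normal labelling and on the dye swap for all 14 probes of the 4 ligands and 6 receptor chains. All values lie between −0.32 and 0.60, short of the 2-fold lines at −1 and 1, and the 3 IFNLR1 probes, averaged over their spots, lie below 0 on both arrays.

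Of the 9 measured members, 0 passed 2-fold on both arrays with 1 sign, beside 0.114% of all 14045 measured genes (0.0783% higher and 0.0356% lower). At 1.5-fold the count was also 0, beside 1.02% (0.619% higher and 0.399% lower). At a share this small, a count of 0 among 9 genes lies near the background and is no result about them. In sign, 5 members were higher on both arrays (IFNL1, IFNK, IFNAR1, IFNAR2 and IL10RB), beside 26.9% of all measured genes, and 1 was lower on both, beside 26.7%. The remaining 3 (IFNE, IFNGR1 and IFNGR2) differed in sign between the arrays. The same sign on both arrays was found in 53.7% of all genes. Their median ratio was 0.04, against −0.0039 over all genes, whose SD was 0.24 with normal labelling and 0.27 on the swap. Pearson's r between the arrays over all measured genes was 0.214, given as a description across genes, which are not replicates.

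Signs of the brighter receptor chains depended on how the arrays were normalized. Centred on the median of their log ratios without loess, all measured genes had a median of 0.13 with normal labelling and −0.23 on the swap. IL10RB was then at 0.19 and −0.24, IFNGR1 at 0.16 and −0.27 and IFNGR2 at 0.18 and −0.26, each close to that median. IFNLR1 was at −0.09 and −0.46, below it on both arrays, and IFNAR1 was at 0.16 and 0.19. IFNE, at −0.14 and −0.11, was then below 0 on both arrays, but on the swap it lay above the median of −0.23.

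**Figure D3:**
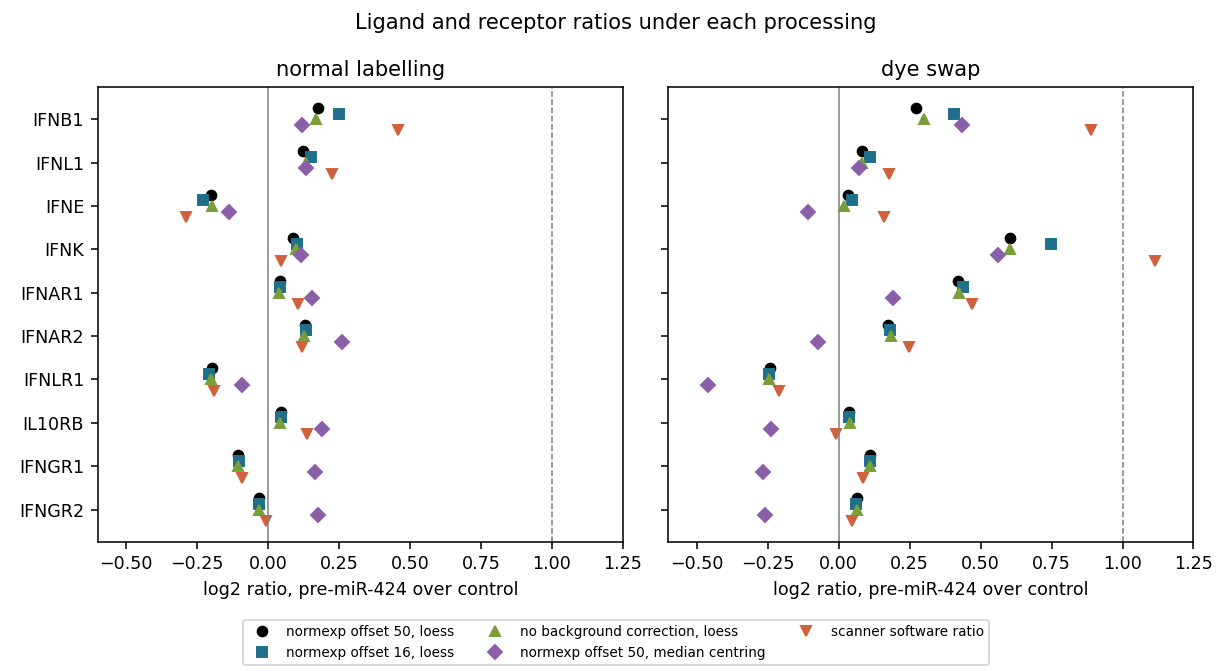
Log2 ratio of pre-miR-424 over control for each ligand and receptor chain (its brightest probe) with normal labelling (left) and on the dye swap (right), under 5 ways of processing, with the dashed line at 2-fold. Dim IFNB1 and IFNK move most with the scanner software's ratio (0.89 and 1.11 on the swap), and the bright receptor chains with median centring.

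Other genes of the pathway were taken from lists by role, and the same counts are given for each. Of 18 other interferon genes 13 were on the array, and 2 of these were measured, IFNA4 at −0.08 and −0.08 and IFNL2, a close copy of IFNL3, at 0.28 and −0.08. IFNG, the ligand of IFNGR1 and IFNGR2, was not well above background in every channel. Among 6 other class II cytokine receptors, the family of the interferon receptor chains, 3 were measured, with 2 higher on both arrays and a median of 0.24. F3, tissue factor, was at 0.39 and 0.20 and IL22RA1, which pairs with IL10RB to bind IL-22, at 0.19 and 0.30.

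Of 6 kinases, STATs and partners that act at these receptors, 3 were higher on both arrays, 1 was lower, and the median was 0.30. None passed 2-fold. IRF9 was at 0.70 and 0.64, STAT3 at 0.54 and 0.67 and STAT2 at 0.62 and 0.54. A dimmer STAT3 probe was at 0.34 and 0.31. Among 9 inhibitors of receptor signalling 1 was higher and 4 lower on both arrays, 0 passed 2-fold, and the median was −0.02. USP18, which binds IFNAR2 and dampens type I signalling and is itself interferon-inducible, was at 0.84 and 0.77. PTPN1, a phosphatase that acts on JAK2 and TYK2, was at −0.44 and −0.28, and PTPN11 at −0.29 and −0.15. In the list of receptor trafficking and turnover, with 6 genes and a median of −0.01, 1 gene was higher and 1 lower on both arrays. The lower was BTRC, a subunit of the ubiquitin ligase that marks IFNAR1 for degradation, at −0.86 and −1.07, past 2-fold on the swap alone, and the higher was CBL, another ubiquitin ligase, at 0.07 and 0.32.

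Upstream of the ligands, 20 sensors, adaptors and factors that induce interferon genes had a median of 0.08, with 9 higher and 2 lower on both arrays and 0 past 2-fold. IRF7, the factor that amplifies type I interferon genes and is itself induced by interferon, was at 1.04 and 0.69. The RNA sensors DHX58 and IFIH1, also interferon-inducible, were at 0.49 and 0.66 and at 0.50 and 0.35. Downstream of the receptors, all 23 measured interferon-stimulated genes of 24 listed were higher on both arrays, with a median of 0.85 and means from 0.22 to 1.65. Of these, 6 rose past 2-fold on both arrays (IFI44L, MX2, CMPK2, MX1, XAF1 and IFI6), beside 0.0783% of all genes, with IFI44L at 1.69 and 1.62. The list was drawn up with earlier results of these arrays known, so its direction is no independent evidence. Of 14 targets of type II interferon 8 were measured, 5 of them higher and 1 lower on both arrays, with a median of 0.32. With normal labelling alone this median was 0.39, on the swap alone 0.20, and without a filter on dim probes 0.069. CXCL10, which is also in the former list, was at 0.79 and 1.16, CXCL11 at 0.93 and 0.88 and GBP5 at 0.68 and 0.36, all of which type I interferon can induce as well.

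**Figure D4:**
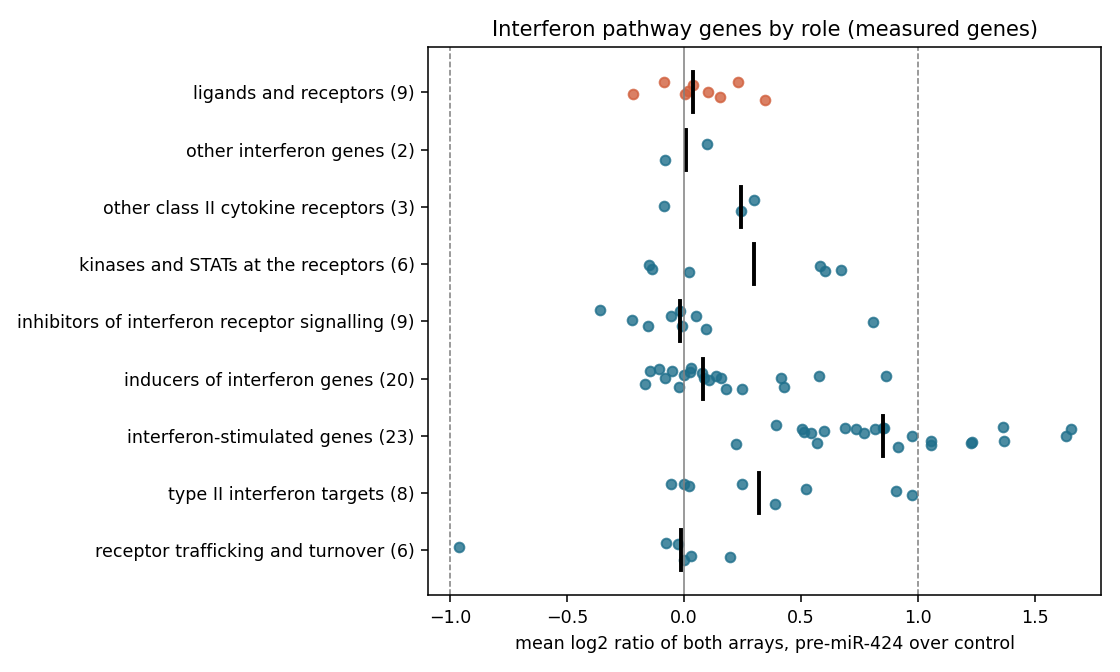
Mean log2 ratio over both arrays, pre-miR-424 over control, of each measured gene in the ligand and receptor group and in the lists of pathway genes by role. The ligands and receptor chains lie around 0 (median 0.04), and the interferon-stimulated genes around 0.85.

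IFNAR2, IL10RB, IFNAR1 and IFNGR2 lie next to each other on chromosome 21, in this order in RefSeq, with IL10RB-DT, which had no probe, between IFNAR2 and IL10RB. Their means ran from 0.02 to 0.23. Beyond IFNGR2 follow TMEM50B at 0.23 and 0.20, DNAJC28 at −0.34 and 0.30 and GART at −0.21 and −0.10, so the neighbours had no common direction. Among the ligands, IFNB1, IFNE and IFNK lie on chromosome 9 and IFNL1 on 19, and of the other receptor chains IFNLR1 lies on chromosome 1 and IFNGR1 on 6.

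Of the marker lists, all 8 genes of basal prostate epithelium were measured, and 4 of 7 of luminal epithelium, without KLK3, TMPRSS2 and ACP3. Markers of fibroblasts were measured for 3 of 6 genes, of leukocytes for 4 of 7 on the array, of endothelium for 1 of 5 and of plasmacytoid dendritic cells, the main producers of type I interferon in blood, for 2 of 5, without CLEC4C, LILRA4 and IL3RA. The medians of these lists over both arrays lay between −0.08 and 0.10. Over the same measured genes, the median of basal markers was 0.02 with normal labelling and −0.16 on the swap. It was 0.12 and −0.17 for luminal and 0.12 and −0.08 for leukocyte markers, in each case with opposite signs. For plasmacytoid dendritic cells it was 0.08 and 0.05. The part of the marked cell types in the ligand and receptor values was not tested.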

How the data were processed

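RNA of RWPE-1 cells with pre-miR-424 or negative control was measured on 2 arrays, normal labelling and dye swap, which the design text of the series calls technical replicates and which counted as 1 replicate. The scanner files deposited by the authors (Feature Extraction 10.7.3.1) hold median spot brightness and local background per channel as intensity on a linear scale, not normalized, and a log10 ratio (Cy5 over Cy3) from the software. A log2 ratio table, also deposited by the authors, has steps that are not given in the sources used here, and limma is named in the submitters' processing notes. Its columns matched the log2 ratios of Cy5 over Cy3 computed here, unturned on the swap (Pearson's r 0.991 and 0.988, median absolute differences 0.00101 and 0.00133, column medians 0.0236 and 0.0355). How its values were centred stays unknown. Columns of samples outside the series numbered 0.

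Median signals were corrected with limma 3.58.1 under R 4.3.3 (normexp over all spots, offset 50), which draws ratios of dim probes towards 0, and normalized within each array by loess with control and outlier spots at weight 0. Control spots and the 810 outlier spots were then left out, spots of a probe averaged, and signs turned on the swap. A probe was measured when well above background in every channel at most of its spots (25980 of 42401 probes). The brightest measured probe stood for a gene, and IFNB1 by its only probe. Accessions were named through RefSeq (GRCh38.p14), which matched 25766 of 27133 (95.0%). The array design uses hg19, so no probe coordinates are given. Python 3.11.15 with pandas 2.3.3 and numpy 2.4.6 was used for the rest. A call needed 2-fold on both arrays with 1 sign. Named besides the members were, per list, the genes past this threshold or otherwise the 3 largest means of one sign on both arrays, and outside this rule IFNL2, 1 of only 2 other interferon genes measured. The IFNL2 values were seen before it was named. From the lists 2 genes are not reported here. The members and lists were chosen with earlier results of these data known. Tried as alternatives were uncorrected signals, an offset of 16, centring on the median, ratios of the scanner software or of the authors, other treatment of outlier spots and dim probes, the mean of a gene's probes, each array alone and 1.5-fold. The number of arrays limits the precision. Slide and scan hold both arrays, so no batch could be separated.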

Additional observations from a re-analysis of the deposited data

Results flagged for a closer look

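A control probe named E1A, present at 35 spots, gave signal in data outside the ligand and receptor comparison. It was well above background at 32 spots in Cy3 and 29 in Cy5 with normal labelling, and at 29 in Cy3 and 34 in Cy5 on the swap, where 4 of 308 negative-control spots were so in each channel. Its median signals were 83, 123, 79 and 135 in that order, beside 88, 155, 89.3 and 129 for IFNB1. The image analysis protocol named in the scanner files is one without spike-in, and the labels do not say what was added to the RNA. The probe was chosen after its values were seen, and the cause of its signal was not tested.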

How the results depend on the processing

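Of 233 values of members and pathway lists recomputed from both arrays, 206 stayed within the spread between the arrays or the limit for counts and 27 moved, and of 60 for marker lists 7 moved, and the cause was not tested. For a member, a single array always lies within the spread around the mean of both, so values from 1 array are not in these counts. No member passed 2-fold on both arrays under any alternative that used both. With an offset of 16, IFNB1 was at 0.33 and the class II receptors' median at 0.27. Under median centring 3 members were above 0 and 2 below 0 on both arrays. All measured genes then had medians of 0.13 with normal labelling and −0.23 on the swap, so these counts do not compare members with all genes. In that setting IFNAR2 was at 0.095, IFNLR1 at −0.27 and IL10RB at −0.024, and the members' median was −0.024. The medians were 0.20 for class II receptors, 0.24 for kinases and STATs, −0.080 for inhibitors, 0.026 for inducers and 0.80 for interferon-stimulated genes. With the scanner software's ratio IFNB1 was at 0.67, IFNL1 at 0.20, IFNAR2 at 0.18 and IL10RB at 0.064, and the medians were 0.29 for class II receptors, 0.31 for kinases and STATs and 0.87 for interferon-stimulated genes. Averaging a gene's probes gave 0.093 for IFNAR2, −0.054 for inhibitors and 0.24 for kinases and STATs. Without a filter on dim probes the members' median was 0.071, as with 1 channel per array required, that of class II receptors 0.016 and of type II targets 0.069. Values from 1 array alone used the genes measured on that array. With normal labelling 6 of 10 members were then higher and 4 lower, and on the swap 8 of 9 higher and 1 lower. A sign on 1 array suffices for these counts, so they do not compare with counts on both. Medians from 1 array ranged from 0.043 to 0.082 for members, 0.19 to 0.20 for class II receptors and 0.31 to 0.32 for kinases and STATs. They were 0.20 to 0.39 for type II targets, −0.10 to −0.054 for inhibitors, 0.07 to 0.14 for inducers and 0.81 to 0.82 for interferon-stimulated genes. Counts of ligands detected in every channel were 3, and 4 with the weaker mark, with any spot or with normal labelling alone. No paired analysis was possible because each ratio is taken within an array and the arrays are technical replicates of 1 comparison. Signal over background limits IFNB1 and the dimmest IFNLR1 probe.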
